A study of Mus musculus with 4 samples.

Results

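The genes described here are 37 members of the machinery that copies DNA and divides the cell, out of 22620 genes counted in single-cell RNA libraries of immune cells from mouse tumours. They were taken by symbol from a list of cell cycle genes, and each was found once in the gene tables. Of them 12 act in S phase and 25 in G2 and mitosis. The tumours were MC38, a mouse colon adenocarcinoma line, grown in wild-type (WT) mice or in mice with 1 gene knocked out (KO). Cells positive for CD45, the leukocyte surface protein, were enriched on beads and captured in droplets with a kit that reads the 3′ end of each transcript, giving 2 WT and 2 KO libraries. Strain, sex, age, days of tumour growth, the deleted part of the gene, the cells in which it is deleted and the number of animals behind a library were not stated in the labels. Each p-value therefore reflects how far these libraries scatter, and that scatter may be technical.

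A cell that enters the cycle transcribes these genes in 2 waves. In late G1 and S phase the E2F factors switch on the replicative helicase, the sliding clamp and the enzymes that make nucleotides. In G2 and mitosis MuvB with B-Myb and FoxM1 drives genes of cyclin B and Cdk1, the kinetochore, the spindle and the anaphase ubiquitin ligase. Many of these genes are repressed in resting cells by the DREAM complex, through a CHR element in their promoters. In tumours, T cells divide after they meet antigen, while macrophages come both from incoming monocytes and from division in place.

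A few promoters are shown because almost all members moved together in 1 cell class below. Windows of 300 bases, from 250 before to 50 after the start, were found in the RefSeq promoter table (GRCm38.p6) for 33 members. An E2F-like site (TTTGGCGC or TTTCCCGC, both strands) stood in 5 of 11 S phase members and in 0 of 22 others, against 1.80% of 27025 genes. The CHR letters TTTGAA (both strands) stood in 1 of 11 S phase members and in 16 of 22 others, against 20.2% of genes. The CCAAT box (both strands) stood in 9 of 11 and 19 of 22, against 41.1%. A match says only that these letters lie in the window. Below, 250 bases before to 30 after the start are given 5′ to 3′ on the gene's strand, with E2F-like, CHR and CCAAT letters on either strand in capitals. The first pair, of the helicase genes Mcm5 (plus strand, chr8:75109259-75109538) and Mcm6 (minus strand, chr1:128359676-128359955), holds E2F-like letters. For this pair the gene start in another annotation, GENCODE, lies past the printed stretch, at chr8:75109569 and chr1:128359664. The others, of Mki67 (minus strand, chr7:135716350-135716629), Top2a (minus strand, chr11:99024160-99024439) and Ccnb2 (minus strand, chr9:70421525-70421804), hold CHR letters beside CCAAT boxes.
Mcm5: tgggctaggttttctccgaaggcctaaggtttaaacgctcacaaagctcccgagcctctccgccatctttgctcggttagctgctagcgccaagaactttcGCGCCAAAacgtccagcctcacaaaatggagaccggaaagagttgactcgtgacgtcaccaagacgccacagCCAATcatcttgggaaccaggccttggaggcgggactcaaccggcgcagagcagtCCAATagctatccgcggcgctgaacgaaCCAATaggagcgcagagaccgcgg
Mcm6: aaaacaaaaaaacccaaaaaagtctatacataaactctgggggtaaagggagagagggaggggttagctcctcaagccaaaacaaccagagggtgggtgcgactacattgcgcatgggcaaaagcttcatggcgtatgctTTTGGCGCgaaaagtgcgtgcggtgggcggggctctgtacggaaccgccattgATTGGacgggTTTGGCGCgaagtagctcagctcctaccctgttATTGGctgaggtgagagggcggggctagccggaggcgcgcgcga
Mki67: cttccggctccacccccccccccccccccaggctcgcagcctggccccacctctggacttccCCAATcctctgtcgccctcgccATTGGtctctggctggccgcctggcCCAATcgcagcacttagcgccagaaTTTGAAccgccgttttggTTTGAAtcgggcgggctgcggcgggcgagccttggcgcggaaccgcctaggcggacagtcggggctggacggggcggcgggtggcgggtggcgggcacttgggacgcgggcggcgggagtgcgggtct
Top2a: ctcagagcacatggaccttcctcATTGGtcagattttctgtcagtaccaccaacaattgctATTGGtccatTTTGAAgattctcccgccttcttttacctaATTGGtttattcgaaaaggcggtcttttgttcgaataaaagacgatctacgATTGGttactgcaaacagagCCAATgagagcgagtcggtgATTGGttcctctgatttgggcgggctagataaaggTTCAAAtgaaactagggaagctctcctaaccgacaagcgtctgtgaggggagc
Ccnb2: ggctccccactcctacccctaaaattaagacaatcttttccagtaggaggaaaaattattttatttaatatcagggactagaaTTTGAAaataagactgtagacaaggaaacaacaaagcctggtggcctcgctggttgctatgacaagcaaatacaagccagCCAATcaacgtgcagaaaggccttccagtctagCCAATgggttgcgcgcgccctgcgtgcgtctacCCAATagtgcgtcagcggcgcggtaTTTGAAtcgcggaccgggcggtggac

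Each library held 9239 to 18324 barcodes and 94213071 to 130466357 UMIs, which are counts of single captured transcripts. After filters on gene number and mitochondrial share 8664, 8815, 17207 and 9498 cells remained in WT 1, WT 2, KO 1 and KO 2, with median depths of 9905.5, 12133, 6052 and 8308 UMIs. The KO libraries were thus shallower. Pairs of libraries shared 21 to 49 barcodes. Cells were put into classes by marker UMIs: C1q genes, Csf1r and others for macrophage-like cells, Ly6c2, Chil3, Plac8 and others for monocyte-like cells, Cd3 and Cd8 genes for CD8 T-like cells. Cells that met 2 gates were left out. C1qa stood at 3060 to 3845 CPM (counts scaled to total UMIs) in macrophage-like and at 262 to 463 in monocyte-like sums. T cell markers summed to 3.94 and 8.65 CPM in WT and 43.5 and 24.5 in KO macrophage-like sums, and free RNA was not removed. The part of that difference in the results below was not tested.

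Levels are given as CPM, the UMIs of a gene scaled to the total UMIs of a class in a library, and the level of the whole set as their sum over the 37 genes. In WT the set stood highest in CD8 T-like cells, at 5105 and 5268 CPM, with non-immune cells (gated on collagen, keratin and similar transcripts, 5786 and 4451) and CD4 T-like cells (4374 and 5156) overlapping them. NK-like cells followed at 3011 and 3537, and other T-like cells, 3317 and 2160, overlapped these. Macrophage-like cells, at 2073 and 2155, and monocyte-like cells, at 2238 and 1769, did not differ beyond their spread. Conventional dendritic (cDC-like) cells, at 1378 and 1057, and neutrophil-like cells, at 1308 and 839, stood lower and overlapped each other. Plasmacytoid dendritic (pDC-like) cells, which hardly divide, stood at 352 and 341 (WT) and at 457 and 404 (KO), which serves as the background level.

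The order differed in KO. CD8 T-like cells ranked behind CD4 T-like cells, at 2705 and 4036 against 3879 and 4124, although these ranges overlap. Monocyte-like cells ranked below cDC-like cells, at 883 and 949 against 1237 and 990. Macrophage-like cells held 1297 and 1672. In NK-like cells, too few in WT to test (18 and 37 cells), the set stood at 1218 and 1851. In CD8 T-, CD4 T-, NK-, macrophage- and monocyte-like cells both KO libraries lay under both WT libraries, while in cDC-, neutrophil-, other T-like and non-immune cells the ranges overlapped.

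**Figure D1:**
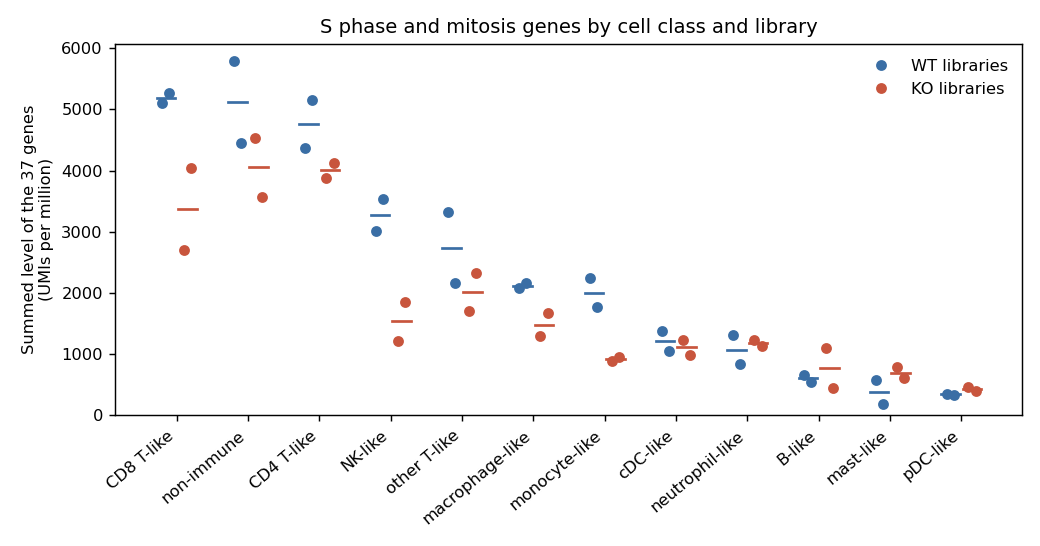
Summed level of the 37 genes (CPM, linear axis from 0) in each cell class; each point is a library and each bar the mean of 2. Both KO points lie under both WT points in CD8 T-like, CD4 T-like, NK-like, macrophage-like and monocyte-like cells, and the monocyte-like KO points stand at 883 and 949.

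Monocyte-like cells showed the widest change: 36 of the 37 genes were lower in KO, and both KO libraries lay under both WT libraries for all 37. No share of all genes with both KO libraries under both WT libraries is given, here or for the classes below. Of 10920 genes tested there 8.33% were called lower. The median log2 change of the set was -1.22, against -0.01 over all genes tested. The 12 S phase genes ran from -0.36 to -1.39 and the mitotic genes from -0.26 to -1.82.

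Among the S phase genes all 7 of the helicase and fork group fell in monocyte-like cells. Mcm5, a subunit of the ring that unwinds DNA, was at 29.5 and 22.8 CPM in WT and 13.8 and 13.4 in KO, a log2 change of -0.88 ± 0.13 (SE, adjusted p = 0.000845). Its partners Mcm2, Mcm3, Mcm4 and Mcm6 fell by 0.80, 0.87, 0.73 and 0.70. Pcna, the sliding clamp, fell least of the group, from 131 and 101 to 84.8 and 86.9 CPM (log2 change -0.36 ± 0.11, adjusted p = 0.0402). Pclaf, which binds that clamp at the fork, fell most, from 138 and 89.8 to 36.1 and 46.9 (-1.39 ± 0.24, adjusted p = 0.0223). The 3 genes of nucleotide supply also fell: Rrm1 and Rrm2, the subunits of ribonucleotide reductase, by 0.93 and 1.15, and Tyms, thymidylate synthase, by 0.88. Uhrf1 and Hells, which copy DNA methylation and remodel chromatin behind the fork, fell by 1.39 and 1.14.

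Genes of the mitotic kinase came next. Ccnb2, a B-type cyclin, had the smallest adjusted p of the set in monocyte-like cells, with 38.8 and 32.7 CPM in WT and 9.40 and 9.96 in KO (log2 change -1.82 ± 0.12, adjusted p = 3.53e-06). Ccnb1, the other B-type cyclin, went from 20.3 and 15.4 to 6.07 and 7.35 CPM (-1.35 ± 0.17, adjusted p = 0.000218). Ccna2 fell by 1.62, Cdk1 by 1.11 and Cks1b by 1.20. Cks2, a small subunit of the same kinase, was the 1 member that did not pass, at 71.2 and 62.9 CPM in WT and 56.5 and 50.4 in KO (-0.26 ± 0.10, adjusted p = 0.0993). All 5 mitotic kinase and checkpoint genes passed, led by Birc5, the survivin subunit of the Aurora B complex, at 77.5 and 64.4 CPM against 19.6 and 23.8 (-1.64 ± 0.12, adjusted p = 6.08e-06). Aurka, Aurkb, Bub1 and Bub1b ran from -1.14 to -1.52.

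Genes of ubiquitin ligases in mitosis, of the centromere and of the spindle are described next. Ube2c, the ubiquitin-conjugating enzyme of the anaphase-promoting complex, stood at 106.6 and 92.8 CPM in WT and 31.8 and 37.1 in KO monocyte-like cells (log2 change -1.47 ± 0.11, adjusted p = 6.17e-06). Cdca3, which triggers the loss of Wee1 at mitotic entry, stood at 57.7 and 47.6 against 13.8 and 16.8 (-1.72 ± 0.12, adjusted p = 6.08e-06), and Cdc20, the activator of that complex, fell by 1.72. All 3 centromere genes passed, with Cenpf, a kinetochore protein of G2, at 53.9 and 44.6 against 16 and 16.9 (-1.52 ± 0.11, adjusted p = 6.32e-06), while Cenpa, the centromeric histone, fell by 0.78. All 5 spindle genes passed, and Tpx2, which nucleates spindle microtubules, went from 35.4 and 32.7 to 11.7 and 12.7 (-1.41 ± 0.11, adjusted p = 1.17e-05).

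The 3 genes of the mitotic chromosome passed as well. Mki67, which coats it and gives the Ki-67 antigen, was at 152.4 and 115.6 CPM in WT and 46.8 and 47.9 in KO (log2 change -1.43 ± 0.12, adjusted p = 1.83e-05). Top2a, which untangles sister DNA, was at 155.2 and 108.3 against 48.1 and 56.5 (-1.26 ± 0.16, adjusted p = 0.00225). Hmgb2, a chromatin protein that resting cells also make, was at 369.9 and 291.3 against 180.3 and 184.2 (-0.79 ± 0.11, adjusted p = 0.000381). Both KO libraries lay under both WT libraries for each of these genes, although for Pcna, Pclaf, Mcm2, Mcm4, Rrm1, Bub1 and Cks2 the WT libraries differed from each other by more than this gap.

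Macrophage-like cells changed in the same direction by less: 5 of 37 genes were lower, and 36 had a log2 change below 0. Of 12548 genes tested 3.61% were called lower. The median was -0.41, against -0.01 over all genes. Hells went from 22.2 and 24.0 CPM to 12.2 and 14.5 (log2 change -0.66 ± 0.13, adjusted p = 0.0213), Mcm2 from 24.6 and 23.8 to 14.8 and 16.5 (-0.50 ± 0.10, adjusted p = 0.0269), and Bub1b, a spindle checkpoint kinase, from 21.6 and 22.5 to 11.1 and 14.2 (-0.67 ± 0.14, adjusted p = 0.0296). Both KO libraries lay under both WT libraries for these and for 34 of the 37 in all. Hmgb2 went from 316.6 and 338.5 to 191.2 and 220.1 (-0.54 ± 0.12, adjusted p = 0.0339) and Mcm5 from 33.2 and 35.2 to 20.8 and 24.1 (-0.48 ± 0.12, adjusted p = 0.0439). Mki67, at 134.0 and 132.2 against 72.1 and 96.2, missed the threshold (-0.53 ± 0.15, adjusted p = 0.0725). Top2a, at 138.1 and 135.1 against 81.4 and 111.5, also missed it (-0.37 ± 0.16, adjusted p = 0.193). So did Ccnb1 (-0.30 ± 0.21, adjusted p = 0.436). Pcna was at 151.7 and 137.9 against 119.8 and 134.7 (-0.05 ± 0.10, adjusted p = 0.789).

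The macrophage-like count rests on single libraries. KO 1 lay below KO 2 for every gene named, and leaving out 1 library gave 0 (KO 1), 29 (KO 2), 2 (WT 1) or 0 (WT 2). It was 11 with DESeq2 and 16 when scaled to total counts instead of by TMM, which lowered the median of all genes to -0.15 there and left the direction of the 5 genes as it was. With macrophage- and monocyte-like cells as 1 class, a choice made after seeing the data, it was 15. The share of all genes called is not given for these alternative settings, nor for those of the other classes below. Such counts show only how far a call depends on the setting.

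In CD8 T-like cells 0 of 37 genes passed with edgeR or DESeq2, beside 0.0749% of 8010 genes tested that were called lower. At an unadjusted p under 0.05, 19 members were lower. The share of all genes at that looser level was not counted, here or below. The median change was -0.71, against 0.01 over all genes. WT held 26 and 82 of these cells and KO 888 and 369. Mki67 stood at 312 and 308 CPM in WT and 125 and 210 in KO (log2 change -0.83 ± 0.24, adjusted p = 0.214). Top2a stood at 419 and 364 against 167 and 252 (-0.80 ± 0.21, adjusted p = 0.115), and Hmgb2 at 1030 and 1278 against 639 and 954 (-0.47 ± 0.20, adjusted p = 0.433). In each of the 3 both KO libraries lay under both WT libraries, as for 27 members in all, and KO 1 was the lower. Ccnb1 overlapped, at 21.3 and 29.8 against 22.5 and 30.3 (-0.04 ± 0.38, adjusted p = 0.991). With no filter on low counts, and with all libraries kept, 8 members passed as lower. As a separate change, leaving out a single library also moved the count.

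Few members passed in the other classes. In CD4 T-like cells 1 of 36 genes tested was lower, beside 0.131% of 6885 genes: Ube2c, at 221 and 261 CPM against 117 and 153 (log2 change -0.83 ± 0.19, adjusted p = 0.0400). In cDC-like cells 1 of 35 was higher, beside 1.96% of 8247 genes: Pclaf, at 44.4 and 46.2 against 82.5 and 64.8 (0.74 ± 0.20, adjusted p = 0.0418). Both calls rest on single libraries: Ube2c was not called without WT 2 or without KO 1, and Pclaf not without WT 1, WT 2 or KO 1, nor with DESeq2 in either case. Mki67 was at 55.4 and 51.8 in WT and 58.3 and 66.8 in KO cDC-like cells. In non-immune cells 0 of 37 passed with edgeR and 1 with DESeq2, beside 3.06% of 10631 genes called either way with edgeR. At an unadjusted p under 0.05, 7 members were lower there. In other T-like cells 0 of 27 tested passed with either tool, beside 1.56% of 6030 genes, and 3 were lower at the unadjusted level.

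**Figure D2:**
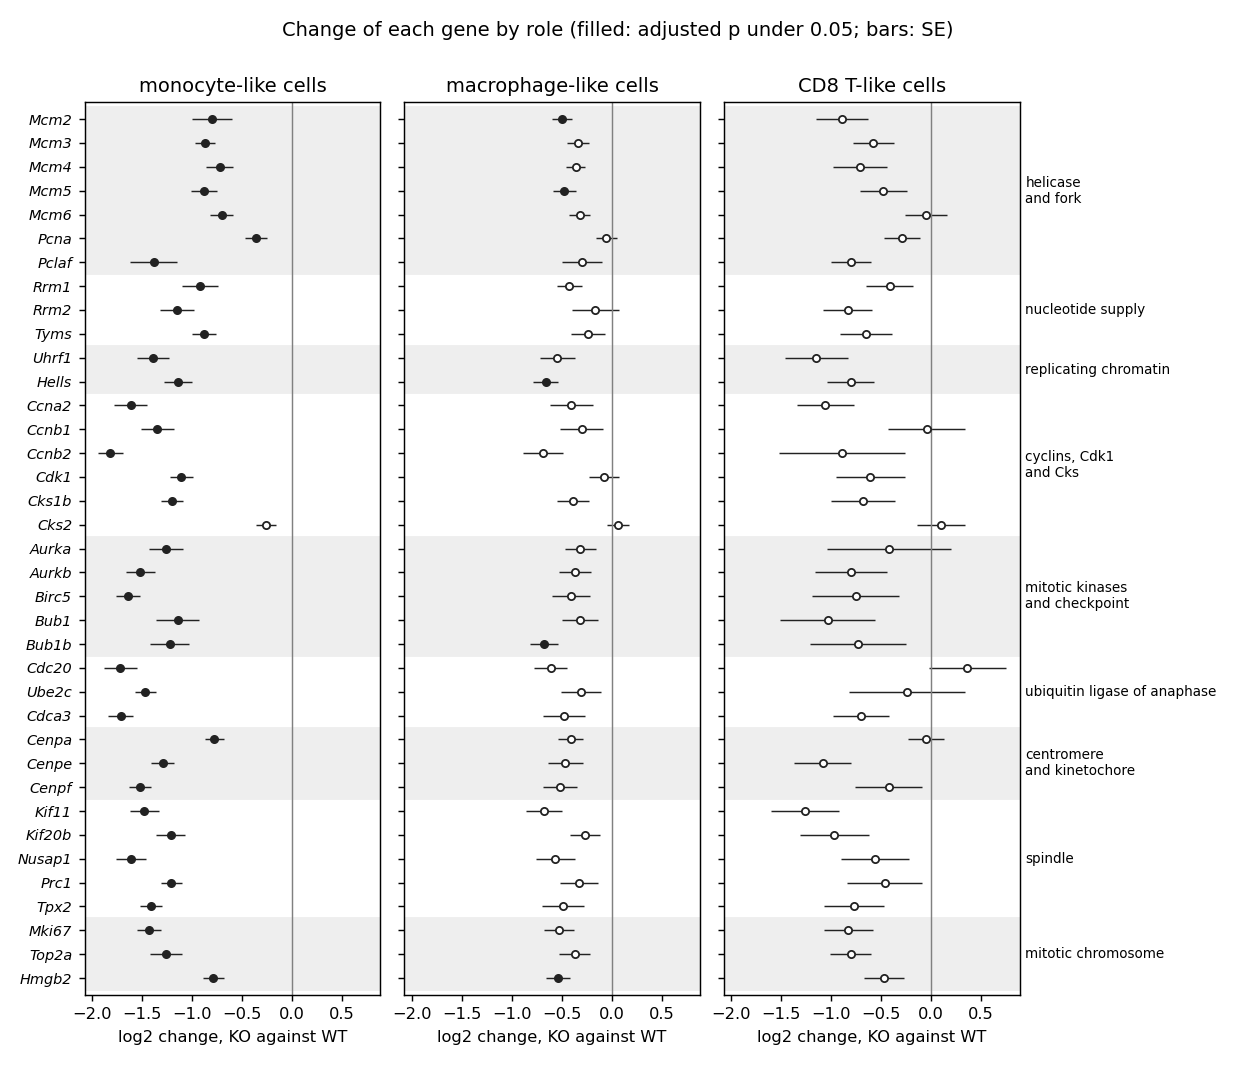
Log2 change of each of the 37 genes, KO against WT, in 3 classes, grouped by role; points are edgeR estimates, bars standard errors and filled points adjusted p under 0.05. In monocyte-like cells 36 points are filled and left of 0, in macrophage-like cells 5, and in CD8 T-like cells 0, where the bars are longest.

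The differences between classes were tested themselves. The change in CD8 T-like cells differed from that in macrophage-like cells for 0 members with edgeR, beside 1.66% of 12252 genes. At an unadjusted p under 0.05 it differed for 6 members. A further pair of comparisons was added after seeing the data. The change was lower in monocyte-like than in macrophage-like cells for 19 of 37 genes, beside 3.66% of 12172. Aurkb, the kinase of the chromosomal passenger complex, led with a log2 difference of -1.16 ± 0.14 (adjusted p = 2.47e-05), followed by Cdk1 (-1.02 ± 0.12, adjusted p = 5.45e-05). Mki67 (-0.88 ± 0.21, adjusted p = 0.119) and Hmgb2 (-0.24 ± 0.18, adjusted p = 0.559) missed the threshold. Leaving out WT 2 gave 37 and leaving out KO 2 gave 7. Against cDC-like cells the change was lower in monocyte-like cells for 13 genes, beside 0.864% of 10993, led by Mki67 (-1.67 ± 0.21, adjusted p = 1.98e-07), and for 3 to 4 genes without WT 1, WT 2 or KO 1.

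In sums over a class, fewer cycling cells and less RNA per cycling cell cannot be told apart. To separate these, cycling cells were called from 77 other cell cycle genes, none of them a member. Each cell was thinned to 3000 UMIs, and a cell with at least 3 UMIs of those genes counted as cycling. Because a cell with only 3 held Mki67 or Top2a UMIs no more often than 19.4% of the time in any phagocyte sum, a stricter call of at least 8, past the steep fall of the distribution of those counts, was added after seeing the data. Among pDC-like cells the looser call marked 0% and 8.33% in WT and 8% and 17.1% in KO, which is its background, and the stricter call 0 of 99 cells, which allows a share of up to 3.03%.

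A smaller share of KO phagocytes was called cycling. Among monocyte-like cells the share was 22.4% and 17.7% in WT and 6.14% and 7.09% in KO, below the highest pDC-like share of 17.1%. By the stricter call it was 13.6% and 9.68% against 2.27% and 3.42%, a ratio of means of 0.244. Among macrophage-like cells the share was 21.6% and 23.9% in WT and 13.3% and 16.1% in KO, also below that pDC-like share. By the stricter call it was 12.2% and 14.1% against 6.22% and 9.25%, a ratio of 0.590. Without thinning the macrophage-like shares were 54.0% and 58.8% against 41.9% and 55.1%, which overlap, as did the CD8 T-like shares. These shares count cells of 3000 UMIs or more, and 7.34% to 22.2% of macrophage-like and 9.17% to 13.6% of monocyte-like cells were shallower. Median depth of monocyte-like cells was 11264 and 11271 UMIs in WT and 5796 and 7181 in KO, and its part in these shares was not tested.

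Lymphocytes were measured in the same way. CD8 T-like cells were cycling in 47.1% and 50% of 17 and 66 WT cells and in 27.5% and 32.4% of 549 and 272 KO cells, and by the stricter call in 35.3% and 28.8% against 10.6% and 15.8%. NK-like cells were at 45.5% and 31.0% of 11 and 29 WT cells and at 16.2% and 23.3% in KO, after 38.9% and 21.6% of WT and 69.4% and 56.6% of KO NK-like cells had been left out as shallower than 3000 UMIs. For CD8 T-like cells 34.6% and 19.5% of WT and 38.2% and 26.3% of KO cells were left out. CD4 T-like cells overlapped, at 27.6% and 37.8% against 43.4% and 28.0%. The cDC-like shares, 13.4% and 10.4% against 6.88% and 7.07%, did not overlap by the looser call but did by the stricter, at 6.04% and 3.25% against 4.23% and 5.05%. Non-immune cells were cycling in 60.9% and 47.9% in WT and in 46.7% and 37.3% of 45 and 67 cells in KO. By the stricter call these were 42.9% and 29.1% against 24.4% and 26.9%, while without thinning they overlapped. With 2 libraries a group the smallest p of the exact permutation test is 0.333, so none of these shares can reach 0.05. The macrophage-, monocyte-, CD8 T-, NK-like and non-immune differences each gave 0.333 (exact, two-sided, n = 2 a group).

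**Figure D3:**
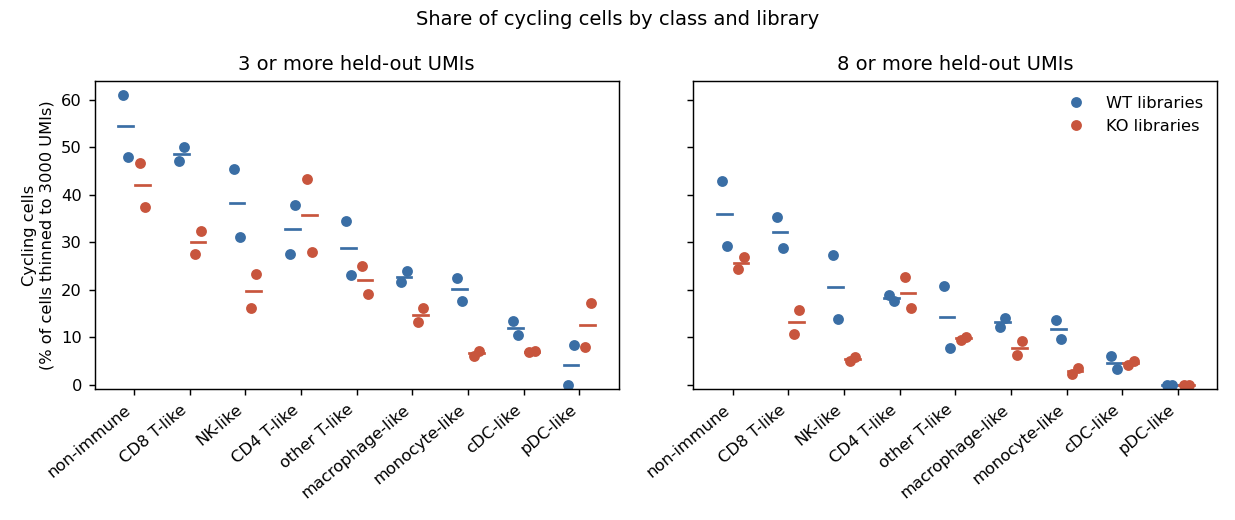
Share of cycling cells (% of cells thinned to 3000 UMIs) by class, with at least 3 (left) or 8 (right) UMIs of 77 cell cycle genes that are not members; points are libraries and bars means of 2. KO points lie under WT points in CD8 T-, NK-, macrophage-, monocyte-like and non-immune cells in both panels, and pDC-like cells are at 0 in the right one.

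The phase of cycling phagocytes was compared as well. Of cycling macrophage-like cells 46.5% and 42.5% in WT and 40.8% and 44.1% in KO had more UMIs per gene of the G2 and mitosis genes than of the S phase genes among the 77. The ranges overlap (exact permutation p = 0.667, two-sided, n = 2 a group). Of cycling monocyte-like cells 48.0% and 49.1% did in WT and 39.1% and 45.7% of 92 and 81 cells in KO, which is lower by 6.14 percentage points (exact permutation p = 0.333).

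Few members passed within cycling cells. The summed level in cycling macrophage-like cells by the looser call was 6295 and 6104 CPM in WT and 5079 and 6008 in KO. By the stricter call it was 8638 and 8245 against 7650 and 8055. In cycling macrophage-like cells 1 rose and 1 fell, beside 13.1% of 11345 genes called either way, and the median log2 change was 0.01. Cdk1 rose, from 171 and 163 CPM to 176 and 204 (log2 change 0.35 ± 0.10, adjusted p = 0.0458), and Bub1b fell, from 67.6 and 63.8 to 41.0 and 46.7 (-0.42 ± 0.10, adjusted p = 0.0195). The call on Cdk1 was lost without WT 1, WT 2 or KO 2 and with total counts, the one on Bub1b without KO 1 and with DESeq2. Hmgb2, at 854 and 862 against 556 and 652 (-0.35 ± 0.11, adjusted p = 0.0646), and Mki67, at 459 and 413 against 319 and 387 (-0.14 ± 0.11, adjusted p = 0.455), lay lower in both KO libraries without passing. Total counts in place of TMM lowered the median of all genes in these sums to -0.17 and that of the 37 to -0.14, and 5 members then passed as lower. By the stricter call Cdk1 and Bub1b again passed, beside 12.3% of 10912 genes, and the median was 0.06.

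In cycling monocyte-like cells 0 of 37 passed with edgeR or DESeq2, beside 4.81% of 9292 genes called either way, and the median was -0.17. At an unadjusted p under 0.05, 12 members were lower. The summed level by the looser call was 6341 and 6101 CPM in WT and 5399 and 5182 in KO. By the stricter call it was 8341 and 8266 against 8743 and 7919, which overlap. Mki67 stood at 473 and 449 CPM in WT and 434 and 356 in KO (log2 change -0.16 ± 0.11, adjusted p = 0.529). Top2a stood at 497 and 435 against 450 and 435 (-0.01 ± 0.11, adjusted p = 0.977), and Hmgb2 at 951 and 869 against 656 and 675 (-0.39 ± 0.11, adjusted p = 0.0506). Under the stricter call 0 passed with edgeR, beside 2.5% of 8599 genes, and the median was 0.09. There 4 members were higher at an unadjusted p under 0.05. KO held 34 and 39 such cells, which limits what could be called.

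Cells not called cycling were tested in the same way. Their summed level was 506 and 499 CPM in WT and 445 and 438 in KO macrophage-like cells, and 455 and 416 against 438 and 419 in monocyte-like cells, beside the pDC-like level of 341 to 457. In macrophage-like cells 1 gene rose, Cks2, from 22.0 and 22.8 to 30.6 and 28.7 CPM (log2 change 0.50 ± 0.10, adjusted p = 0.0192), and 1 fell, Cenpf, from 4.50 and 4.10 to 2.44 and 2.39 (-0.72 ± 0.16, adjusted p = 0.0326), beside 7.65% of 12106 genes called either way. The call on Cenpf was lost with DESeq2, the replicate block and the stricter call, and without WT 1, KO 1 or KO 2, and that on Cks2 only by the stricter call without WT 1. In monocyte-like cells Cks2 and Top2a rose and Ccnb2, Cdca3 and Cks1b fell, beside 12.1% of 10544 genes. Top2a there was at 6.65 and 5.82 against 9.12 and 9.33 CPM (0.58 ± 0.16, adjusted p = 0.0485), and its direction turned under the stricter call, at -0.47. That call on Top2a was lost without any 1 of the 4 libraries, with DESeq2, total counts or the replicate block, and with cells of 2 gates kept. The call on Cks2 there was lost with DESeq2, by the stricter call and without WT 1 or KO 1, that on Cks1b with DESeq2 and without WT 1, KO 1 or KO 2, and that on Cdca3 without KO 2. Under that call, which leaves cells with 3 to 7 UMIs among the others, 18 members were lower in monocyte-like cells (13.3% of 10658 genes called either way) and 3 lower and 1 higher in macrophage-like cells (8.51% of 12242).

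The parts were then put together. Cycling cells, which supplied 27.0% and 29.6% of all UMIs in WT macrophage-like cells, held 82.2% and 83.7% of the UMIs of the 37 genes. In KO they supplied 18.4% and 22.3% of all UMIs and held 72.0% and 79.7% of those of the set. In monocyte-like cells they held 85.9% and 82.2% of the UMIs of the set in WT and 55.2% and 60.9% in KO. In macrophage-like cells the summed level in KO was 0.698 of that in WT. With only the share of UMIs from cycling cells taken from KO it would be 0.784, and with only the levels taken from KO 0.892. In monocyte-like cells the KO level was 0.458 of WT, with 0.508 from the UMI shares and 0.872 from the levels. By the stricter call the values from the shares were 0.790 and 0.544 and those from the levels 0.898 and 0.927. These are values with no test. The 77 genes that call a cycling cell were themselves mostly lower in monocyte-like sums, so less cycle RNA in a cycling cell can move it under the threshold, and a lower share and a lower level are separated only in part. These levels are scaled to total UMIs and carry the scaling shift given above.

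**Figure D4:**
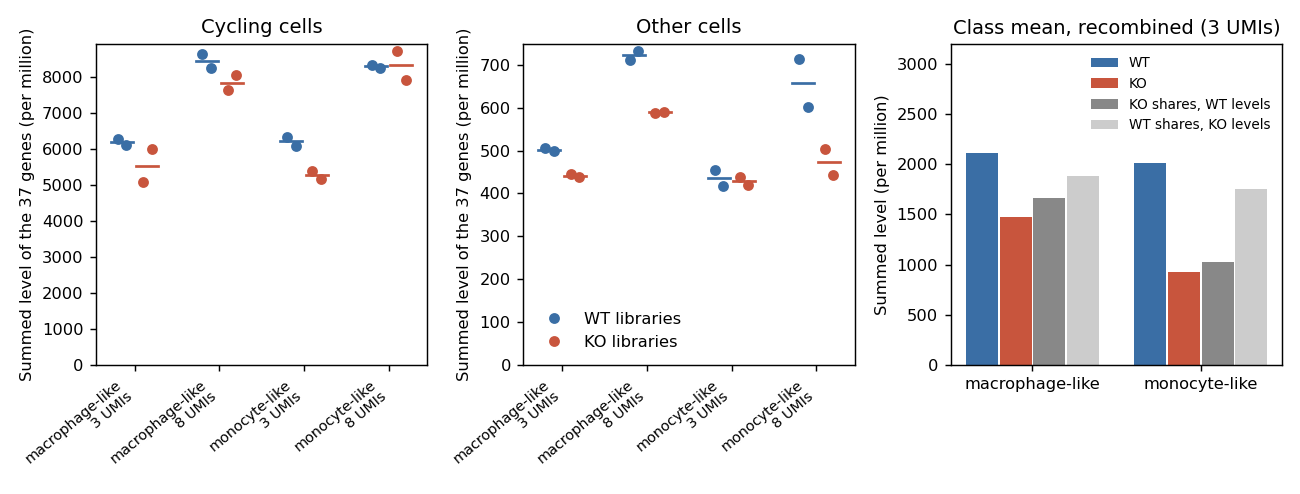
Summed level of the 37 genes (CPM) within cycling and other cells of 2 classes, by the call at 3 and at 8 UMIs; points are libraries and bars means of 2. The right panel gives the class level by the call at 3 UMIs in WT and KO and with shares of 1 genotype joined to levels of the other: for monocyte-like cells the KO level is 0.458 of WT and KO shares with WT levels give 0.508.

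Members differed in how far they were restricted to cycling cells, by the looser call in WT macrophage-like cells. Nusap1, which bundles spindle microtubules, was 99.5 and 84.8 times higher in cycling than in other cells, and Kif11, the motor that separates the poles, 66.8 and 69.5 times. Pcna was 3.21 and 3.31 times higher, Mcm4 4.48 and 4.38 times, Cks2 6.43 and 6.31 times and Hmgb2 7.35 and 7.25 times.

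The monocyte-like class was not made of the same cells in both genotypes. Chil3 stood at 1260 and 381.5 CPM in WT and 249 and 446 in KO, and Ly6c2, which marks incoming monocytes, at 71.2 and 91.6 against 532 and 398. Phagocytes were therefore also split by the share of macrophage markers among their marker UMIs, a choice made after seeing the data, with a new random thinning. In cells with 0 to 25% of macrophage markers the cycling share by the looser call was 23.1% and 14.6% in WT. In KO it was 5.44% and 2.98% of only 294 and 302 cells. From 25 to 50% it was 21.6% and 17.4% against 5.96% and 8.61%, and from 50 to 75% it was 23.4% and 23.5% against 11.1% and 11.1%. In cells with 75 to 100% it was 20.7% and 24.4% against 13.8% and 17.9%. Both KO libraries lay under both WT libraries in each of the 4 bins, and the ratio of means, KO over WT, went from 0.223 through 0.374 and 0.474 to 0.705. The summed level of the 37 genes gave ratios of 0.513, 0.440, 0.549 and 0.758 in the same order. Median UMIs per cell before thinning gave ratios of 0.507, 0.616, 0.724 and 0.944. The part of depth in these gaps was not tested.

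The gap was also seen on either side of both markers. Among monocyte-like cells with a Ly6c2 UMI the set stood at 2993 and 2283 CPM in WT and 784 and 937 in KO. Among those with none it stood at 2048 and 1602 against 959 and 958. With a Chil3 UMI it was 2331 and 2308 against 760 and 996, and with none 2173 and 1541 against 927 and 920. How much of the change in the class comes from its makeup beyond these splits was not tested, and the part of cell state within a bin was not tested.

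**Figure D5:**
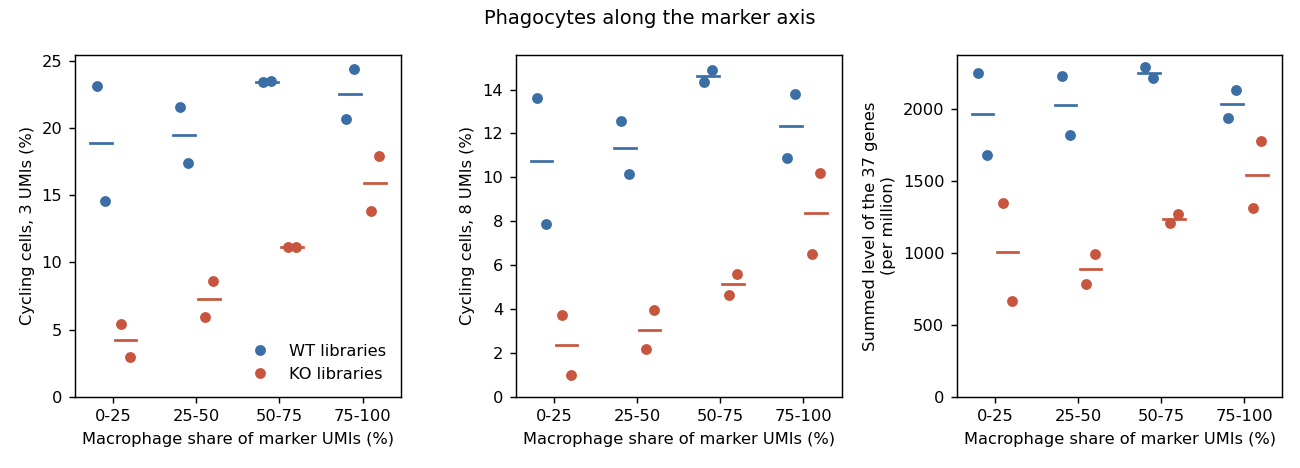
Phagocytes in 4 bins of the macrophage share of their marker UMIs: cycling cells by the call at 3 and at 8 UMIs (%) and summed level of the 37 genes (CPM). Points are libraries and bars means of 2; both KO points lie under both WT points in each bin and panel. The ratio of KO to WT means in the first panel goes from 0.223 to 0.705, and that of the summed level is lowest, at 0.440, in the second bin. The same ratio of median depth goes from 0.507 to 0.944.

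Genes around the set were read from lists of the same pathway, all in monocyte-like sums unless said. Of the 77 genes used to call cycling cells, 26 of 29 S phase genes and 48 of 48 G2 and mitosis genes were lower, with medians of -0.97 and -1.42, among them Tk1, thymidine kinase (log2 change -1.41 ± 0.13, adjusted p = 3.82e-05), and Cdca8, a passenger complex subunit (-1.35 ± 0.11, adjusted p = 1.53e-05). In macrophage-like cells 3 of 29 and 2 of 48 were lower, beside 3.61% of all genes tested. Of 21 E2F, pocket protein and DREAM genes tested 9 were lower and 0 higher, including Mybl2, the B-Myb of the mitotic wave (-1.33 ± 0.25, adjusted p = 0.00350), and Tfdp1, the partner of E2F (-0.64 ± 0.12, adjusted p = 0.00293). Beside the 8.33% of all genes called lower there, 1 of 9 G1 cyclins and their kinases was lower, Ccne1 (-0.82 ± 0.16, adjusted p = 0.00422), and of 6 CDK inhibitors tested 1 was lower, Cdkn2c (-0.81 ± 0.17, adjusted p = 0.00715). Beside 10.1% of all genes called higher, 2 of 7 growth factor receptor genes were higher, the interleukin receptor chains Il2ra (1.44 ± 0.31, adjusted p = 0.00823) and Il2rg (1.13 ± 0.20, adjusted p = 0.0168), and Il2rg was higher in macrophage-like cells too (1.20 ± 0.16, adjusted p = 0.00845), beside 5.59% of all genes. T cells express both, and T cell markers summed to 4.37 and 6.48 CPM in WT and 40.7 and 23.9 in KO monocyte-like sums; their part in that result was not tested.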

How the data were processed

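The deposited matrices hold raw UMI counts per gene and barcode in 4 libraries of CD45+ cells from MC38 tumours. They were made with Cell Ranger 5.0.1 on mm10 per the submitters' processing notes and 5.0.0 per the file headers. The labels name genomic DNA as the molecule, while the values are transcript counts. The knocked-out gene and its level are not reported here. The members and lists were chosen with earlier results of these data known.

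Cells needed 200 or more detected genes and a mitochondrial share of UMIs of no more than 20%. Classes were gated on marker UMIs, with minimums set on the 4 libraries pooled, and no doublet caller was run. Counts were summed per library and class (at least 20 cells a library) and tested with edgeR 4.0.16 (quasi-likelihood, TMM scaling, R 4.3.3), with Benjamini-Hochberg adjustment over all genes that passed the low-count filter and a threshold of 0.05. DESeq2 1.42.0 was an alternative, beside total-count scaling, no low-count filter, the replicate block, stricter gates, other thresholds and depths for cycling cells, and each library left out. Cycling cells were called on 29 S phase and 48 G2 and mitosis genes outside the set, after thinning to 3000 UMIs. Named in full were genes past the threshold, up to the 6 with the smallest adjusted p, and always Mki67, Top2a, Mcm5, Pcna, Ccnb1 and Hmgb2. Counting error only is covered by the limit on a share of 0. Counts for macrophage-like cells were also simulated, with the same preset spread for every gene, not estimated from these libraries. Only well-counted genes were changed. Of these, 78 of 100 genes changed 2-fold and 24 of 100 changed 1.5-fold were recovered, with 7 of 12374 unchanged genes called. The rates in the real libraries can differ and were not measured. Python 3.11.15, numpy 2.4.6, scipy 1.17.1 and pandas 2.3.3 were used.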

Additional observations from a re-analysis of the deposited data

Results flagged for a closer look

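The KO change differed between classes by a test of the difference itself, in comparisons chosen after seeing the data. Both comparisons hold the monocyte-like class, which showed the widest change, so their choice is not independent of the values tested. The counts of members moved when a single library was left out, as given below. The KO change was lower in monocyte-like than in macrophage-like cells for 19 members. Those named had log2 differences of -1.16 for Aurkb, -1.02 for Cdk1, -1.11 for Cdc20, -0.95 for Aurka, -1.14 for Ube2c, -0.95 for Kif20b and -1.04 for Ccnb1. It was lower in monocyte-like than in cDC-like cells for 13 members, with log2 differences of -1.67 for Mki67, -2.15 for Pclaf, -1.41 for Birc5, -1.16 for Top2a, -1.76 for Cdk1, -2.16 for Rrm2 and -0.69 for Hmgb2.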

How the results depend on the processing

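The count of members lower in monocyte-like cells, 36, ranged from 33 to 37 with single libraries left out. In macrophage-like cells, where it was 5, it was 11 with DESeq2, 16 with total counts, 10 with no low-count filter, 10 with the replicate block and 15 with both phagocyte classes as 1, and ranged from 0 to 29 with single libraries left out. The counts in this section stand without the share of all genes called under the same setting. Same-numbered libraries had deviations that correlated at only 0.00715, so the replicate block rests on a shared number. With the block 2 members were lower in cDC-like, 2 in non-immune, 2 in cycling macrophage-like, 2 in cycling monocyte-like and 0 in other macrophage-like cells, and 1 was higher in other monocyte-like cells.

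With no low-count filter the counts of lower members were 8 in CD8 T-like, 2 in cDC-like, 3 in non-immune, 2 in cycling macrophage-like, 4 in cycling monocyte-like and 4 in other macrophage-like cells, and 35 for monocyte-like against macrophage-like cells. With total counts they were 1 in non-immune, 5 in cycling macrophage-like, 3 in cycling monocyte-like and 3 in other macrophage-like cells, and those of higher members 0 in cDC-like, 0 in cycling macrophage-like and 1 in other monocyte-like cells. With DESeq2 they were 0 lower in CD4 T-like, 1 lower in non-immune, 0 higher in cDC-like and 0 higher in other monocyte-like cells. With cells of 2 gates kept, 0 were higher in cDC-like, 2 lower in cycling monocyte-like and 1 higher in other monocyte-like cells; with stricter gates 0 were higher in cDC-like cells. With phagocytes as 1 class 2 were lower in cycling and 4 in other cells. With 8 UMIs 3 were lower in other macrophage-like cells and 18 lower and 0 higher in other monocyte-like cells.

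With single libraries left out, lower members ranged from 0 to 8 in CD8 T-like, 0 to 2 in CD4 T-like, 0 to 2 in cDC-like, 0 to 3 in non-immune, 0 to 3 in other T-like, 0 to 3 in cycling macrophage-like, 0 to 1 in cycling monocyte-like, 0 to 4 in other macrophage-like and 1 to 4 in other monocyte-like cells (7 to 20 with 8 UMIs, with 11 and 12 between). Higher members ranged from 0 to 2 in cDC-like, 0 to 2 in cycling macrophage-like, 0 to 1 in other macrophage-like and 0 to 1 in other monocyte-like cells. The differences between classes ranged from 7 to 37 and from 3 to 14 members.

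The log2 ratio of cycling shares, KO over WT, was -0.38 with 2 UMIs and -0.22 without thinning in macrophage-like cells. In monocyte-like cells it was -0.93, -2.11 and -2.03 with 2, 5 and 8 UMIs, -1.01 at 5000 UMIs and -0.81 without thinning. In CD8 T-like cells it was -0.13, -1.16 and -1.28 with 2, 5 and 8 UMIs, -1.09 at 2000, -0.30 at 5000 and -0.30 without thinning. In NK-like cells it was -0.18, -1.55 and -1.92 with 2, 5 and 8 UMIs and -0.24 at 5000. In cDC-like cells it was -0.26, -0.15 and -0.00058 with 2, 5 and 8 UMIs, -0.45 at 2000, -0.44 at 5000 and -0.13 without thinning. In CD4 T-like cells it turned from 0.13 to -0.12 with 2 UMIs and -0.043 at 2000, and ranged from -0.23 to 0.41, passing -0.08, with single libraries left out. The share of G2 and mitosis in cycling monocyte-like cells was lower by 14.5 percentage points (-14.5) at 5000 UMIs. Top2a in other monocyte-like cells turned to -0.47 with 8 UMIs, and to between -0.68 and -0.29 (-0.30 and -0.61 between) with a library left out as well. The cause of these shifts was not tested. Few WT lymphocytes limit the CD8 T- and NK-like values.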
